A study of Mus musculus with 4 samples.

Results

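Meningeal fibroblast nuclei of the embryonic mouse medial cortex were selected from single-nucleus RNA sequencing of E16.5 (embryonic day) tissue by their own transcript counts. A nucleus with 1500 to 60000 transcripts was selected when it held at least 5 transcripts of *Col1a1* and *Col1a2* together and at least 2 of *Dcn*, *Lum*, *Slc6a13* and *Foxc1* together. It also had to hold at most 2 transcripts of the endothelial gene *Flt1*, fewer than 10 of the choroid plexus gene *Ttr*, and at most 1 of the interneuron genes *Gad1* and *Gad2*. This rule selected 155 of 29656 retained nuclei, or 0.523%. The levels of these 10 genes, and of any gene that follows them in the same nuclei, describe the selection and were not tested.

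The meninges are the membranes around the brain, and their fibroblasts lie in layers named pia, arachnoid and dura. These cells lay down collagens and the laminin-rich basement membrane at the brain surface. They also secrete retinoic acid, BMP and Wnt ligands, chemokines and guidance factors that act on the cortex beneath them. The outer layers form a barrier with cell junctions and solute transporters.

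The tissue came from 2 *Dnmt1* KO libraries, with the genotype Sst-Cre/tdTomato/Dnmt1 loxP2, and 2 control libraries, with the genotype Sst-Cre/tdTomato, on a C57BL/6 J background. All animals therefore carried Cre and the reporter, and the *Dnmt1* KO animals had loxP sites around *Dnmt1* as well. Cre was driven by the *Sst* locus, which is active in postmitotic somatostatin interneurons, so fibroblasts were not the targeted cells. Control replicate 2 was the only library of batch 2 and had 2 sublibraries, whereas the others had 8 each and formed batch 1. The study describes the replicates of a genotype as separate brains, which the labels do not state, and p-values measure the spread between these libraries. Total transcripts per library ranged from 96455278 to 201141704, and no retained barcode was shared between libraries. The targeted gene, *Dnmt1*, had a level over all retained nuclei of 61.8 CPM (transcripts of a gene in every 1000000 transcripts counted) in *Dnmt1* KO replicate 1 and 47.5 in replicate 2, and of 59.6 and 56.0 in the controls.

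The fibroblast nuclei came almost wholly from a single library. *Dnmt1* KO replicate 2 held 152 among 12064 retained nuclei (1.26%, exact binomial 95% interval 1.07 to 1.48). Control replicate 2 held 3 among 4905 (0.0612%, 0.0126 to 0.179). *Dnmt1* KO replicate 1 held 0 of 5640, which allows a share of up to 0.0532% (3 counts of the total, and 0.0654% as the exact upper limit), and control replicate 1 held 0 of 7047, which allows up to 0.0426% (0.0523%). The observed shares of the genotypes therefore overlapped, since 1 *Dnmt1* KO library had a lower observed share than 1 control library. The exact upper limit of 0.0654% for *Dnmt1* KO replicate 1 lies above the 0.0612% of control replicate 2. Averaged over libraries, the share was 0.630% ± 0.891 (SD, n = 2) for *Dnmt1* KO, whereas controls had 0.0306% ± 0.0432 (SD, n = 2). The difference of 0.599 percentage points did not exceed the spread between replicates (two-sided exact permutation test, p = 1, where the smallest p that 2 against 2 libraries allow is 0.333). Without *Dnmt1* KO replicate 2 the difference turned to -0.0306 points. Intervals and limits of this kind cover counting error only.

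**Figure D1:**
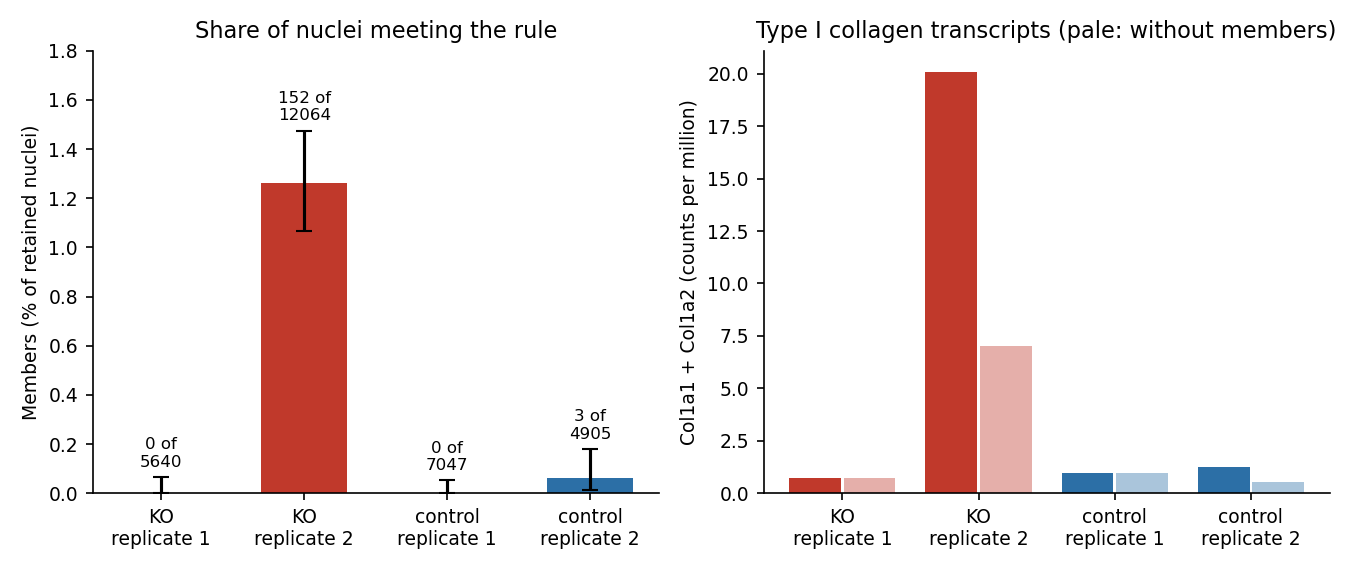
Left, share of retained nuclei that met the fibroblast rule in each library, with exact binomial 95% intervals and the counts above the bars. Right, *Col1a1* and *Col1a2* in CPM over all retained nuclei (full colour) and without the fibroblast nuclei (pale), where *Dnmt1* KO replicate 2 stood at 20.1 and 7.04 CPM and the other libraries between 0.541 and 1.27.

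Some other nuclei with markers of non-neuronal cells were also at their highest share in the same library. A choroid plexus gate (at least 20 transcripts of *Ttr* and 2 of further choroid plexus genes) selected 124 nuclei in *Dnmt1* KO replicate 2 and 1, 1 and 2 in *Dnmt1* KO replicate 1 and control replicates 1 and 2. Endothelial-marker nuclei made up 2.05% of that library and 0.816%, 1.19% and 0.979% of the others in the same order, and macrophage-marker nuclei 0.630% against 0.195%, 0.312% and 0.591%. Mural-marker nuclei did not follow, at 1.76% against 2.09%, 1.83% and 2.71%. These are shares of gated nuclei and not of pure cell types. In *Dnmt1* KO replicate 2, macrophage-marker nuclei had *Erbb4* and *Dlx6os1* of the inhibitory neuron list at 2270 and 174 CPM. All retained nuclei other than fibroblasts had 2101 and 225. Mural-marker nuclei summed to 874 against 296 CPM for the radial glia list and to 576 against 1697 for the excitatory list. Of them 42.5% held at least 2 *Top2a* and *Mki67* transcripts, against 14.2%. Fibroblast transcripts were also present outside the selected nuclei of *Dnmt1* KO replicate 2. Of its 3472 *Col1a1* and *Col1a2* transcripts in retained nuclei, 65.4% lay in the fibroblast nuclei. In nuclei with excitatory neuron markers, which should lack both genes, a transcript of either was found in 3.82% of nuclei in *Dnmt1* KO replicate 2 and in 0.221%, 0.626% and 0.320% in *Dnmt1* KO replicate 1 and control replicates 1 and 2. *Ttr* was found in 16.9% of these neuronal nuclei in *Dnmt1* KO replicate 2 and in at most 0.455% elsewhere. The part of tissue composition and of free RNA in the library difference was not tested.

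Within *Dnmt1* KO replicate 2 the 152 fibroblast nuclei were spread over its 4 first-round wells (1.03% to 1.58% of the nuclei of a well) and its 8 sublibraries (0.841% to 1.66%). Their median of 12540 transcripts, with a range from 3629 to 50868, was close to the 12383.5 of all retained nuclei of the library. At the threshold on *Col1a1* and *Col1a2*, 20 fibroblast nuclei held exactly 5 transcripts. A further 21 retained nuclei held 4 and met the limit on *Dcn*, *Lum*, *Slc6a13* and *Foxc1*. The limits on *Flt1*, *Ttr*, *Gad1* and *Gad2* were not applied to that count. With at least 10 *Col1a1* and *Col1a2* transcripts required, 88 fibroblast nuclei remained in this library. At the second threshold, 3 fibroblast nuclei held exactly 2 transcripts and 8 nuclei held 1. Of the 152 nuclei 13 were called as doublets (8.55%), against 5.63% of all retained nuclei of the library.

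Marker genes that the rule did not name describe the nuclei further. Among 15 markers listed for meningeal fibroblasts, 9 were outside the rule, and 7 of these (*Col3a1*, *Ogn*, *Pdgfra*, *Tbx18*, *Aldh1a2*, *Slc22a6* and *Col6a3*) were at least 4-fold higher than in all other retained nuclei of the library. The remaining markers *Crabp2* and *Twist1* were near 0, with 6 and 5 transcripts in all 152 nuclei. All 7 genes of the arachnoid list with enough transcripts were higher, as were 3 of 4 of the pial and 5 of 7 of the dural list. Over all 10015 genes with enough transcripts, 11.1% were higher. A gene scarce in the other nuclei had enough transcripts only by being high here, so these counts do not test the label. Markers of other cells were mixed. *Tie1* of endothelium was at 0 against 4.49 CPM in all other retained nuclei of the library, where the upper 95% limit of a 0 count over the fibroblast nuclei is 1.64 CPM. *Kcnj8* and *Higd1b* of mural cells, *Folr1* of the choroid plexus and *Sox10* of neural crest glia were at 0 too, but were at or below 1.60 CPM in the other nuclei, so that their 0 shows no difference. *Pdgfrb* of the mural list was at 113 against 11.9 CPM, *Cdh5* of the endothelial list at 99.2 against 7.27 and *Kl* of the choroid plexus list at 22.2 against 0.457. With *Flt1* and *Ttr* of the rule left out, the mural, endothelial and choroid plexus lists summed to 201, 186 and 40.5 CPM in fibroblast nuclei and to 62.6, 189 and 119 CPM in the other retained nuclei. Nuclei gated on the respective markers had 1923, 7402 and 9968 CPM, which the gates on genes of the same lists partly fixed.

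Levels are summed transcripts of the 152 nuclei in CPM, with exact Poisson 95% intervals in parentheses where given, and the level in the other 11912 retained nuclei of the same library follows. They are not scaled by gene length, so levels of different genes are not compared. With nearly all members in 1 library these levels have no replicate of the same genotype. Only the 3 nuclei of control replicate 2, described further below, could be set beside them. A gene was counted as higher or lower at 4-fold, provided that it had, or would have had at the level of the other nuclei, at least 20 transcripts in the fibroblast nuclei. Of 10015 genes with enough transcripts, 1113 were higher (11.1%) and 818 lower (8.17%), and the median ratio over all of them was 1.20. Among genes of the 25 lists and outside the rule, 215 of 312 had enough transcripts, and of these 129 were higher, 22 lower and 64 neither. A gene that is scarce in the other nuclei could enter only by being high in the fibroblast nuclei, so the counts and medians of a list describe these nuclei and are no test.

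Fibrillar and other interstitial collagens, which form the fibres and filaments of connective tissue, were higher in 16 of 18 cases outside the rule. Of 8 fibrillar collagens with enough transcripts 6 were higher, including the rule genes *Col1a1* and *Col1a2*, and 0 were lower. *Col1a2*, a chain of type I collagen, stood at 841 CPM (804 to 880) against 5.68 in other nuclei, with 3, 9 and 102 transcripts in the lowest, median and highest nucleus. *Col3a1*, the chain of type III collagen in extensible tissue, stood at 553 CPM (523 to 585) against 5.55, with 0, 6 and 38 transcripts per nucleus. It was detected in 96.1% of fibroblast nuclei and in 2.08% of excitatory-marker nuclei of the same library, at median depths of 12540 and 14486 transcripts. *Col5a2* and *Col5a1*, whose type V collagen helps to start fibrils, were at 661 (628 to 695) and 204 (186 to 224) CPM against 27.4 and 9.48. *Col2a1* of cartilage and *Col11a1* were neither, at 3.56 against 10.1 CPM and 284 against 107 CPM. All 12 other interstitial collagens with enough transcripts were higher, including the microfibril chains *Col6a1* (40.0 against 0.563 CPM), *Col6a2* (98.8 against 1.07) and *Col6a3* (226 against 2.69) and the membrane collagen *Col23a1* (858 against 22.2).

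The 250 bases before the start of *Col3a1* are shown because this collagen was the highest-ranked fibrillar gene outside the rule, and those before *Col4a5* and *Col4a6* because this basement membrane pair, described below, starts from opposite strands with 1282 bases between the start sites. All lie on GRCm39, with start sites from GENCODE vM39, at chr1:45350448-45350697 (plus strand), chrX:140258104-140258353 (plus) and chrX:140257073-140257322 (minus). Sequences run 5′ to 3′ on the strand of the gene, and capitals mark TATAAA in *Col3a1*, CCAAT in *Col4a5* and GGGCGG, found as its reverse complement CCGCCC, in *Col4a6*.
Col3a1: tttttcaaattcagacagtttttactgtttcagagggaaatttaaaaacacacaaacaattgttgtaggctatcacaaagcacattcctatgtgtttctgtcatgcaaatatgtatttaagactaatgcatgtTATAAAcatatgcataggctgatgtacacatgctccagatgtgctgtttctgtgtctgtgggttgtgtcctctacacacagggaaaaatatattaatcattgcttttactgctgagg
Col4a5: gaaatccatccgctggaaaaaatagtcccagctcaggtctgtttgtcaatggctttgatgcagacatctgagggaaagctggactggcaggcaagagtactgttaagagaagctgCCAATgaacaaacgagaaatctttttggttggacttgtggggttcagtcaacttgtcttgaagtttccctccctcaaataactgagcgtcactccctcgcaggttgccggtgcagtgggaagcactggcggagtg
Col4a6: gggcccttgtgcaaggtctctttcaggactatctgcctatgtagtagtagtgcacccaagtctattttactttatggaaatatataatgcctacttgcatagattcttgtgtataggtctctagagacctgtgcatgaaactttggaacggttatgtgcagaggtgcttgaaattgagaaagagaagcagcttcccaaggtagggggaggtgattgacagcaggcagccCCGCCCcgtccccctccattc
On either strand TATAAA was found in 11.9%, CCAAT in 36.5% and GGGCGG in 36.3% of the windows of this length before 21757 protein-coding genes. Before 125 list genes that were higher in fibroblast nuclei the shares were 11.2%, 35.2% and 44.8%. These matches describe letters and not bound sites.

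Enzymes that mature collagen were more mixed. Of 19 with enough transcripts 10 were higher, 1 was lower and 8 were neither, with a median ratio of 5.12. *Lox*, which crosslinks collagen and elastin, was at 73.9 CPM (63.1 to 86.0) against 1.09, and *Serpinh1*, the collagen chaperone, at 46.3 (37.8 to 56.1) against 6.80. *Adamts2*, which trims procollagen, was at 296 (274 to 320) against 35.7. Its relative *Adamts3* was lower, at 85.4 CPM (73.8 to 98.4) against 441, and stood at 18.7 CPM when doublets were left out. The hydroxylase genes *P4ha1*, *P3h1* and *Plod3* stayed within 4-fold of the other nuclei.

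Basement membrane genes were higher in 17 of 20 cases and lower in 0, with a median ratio of 10.7. The laminin chains *Lama2* (1015 CPM, 974 to 1058, against 51.0), *Lama4* (865, 827 to 904, against 43.8) and *Lama1* (685, 651 to 720, against 28.8) were all higher, whereas the epithelial chain *Lama3* was at 0 against 4.13. *Lama1* was uneven between nuclei, with a median of 2 and a highest value of 75 transcripts. *Nid1* and *Nid2*, which link laminin to type IV collagen, were at 210 and 235 CPM against 10.5 and 9.45. Fibronectin (*Fn1*), an adhesive matrix protein, was at 703 CPM (668 to 738) against 75.7. Of the type IV collagens, *Col4a1* and *Col4a2* were at 511 (482 to 541) and 601 (569 to 634) CPM, and endothelial-marker nuclei had 961 and 1199 CPM. *Col4a5* and *Col4a6* were at 663 (629 to 697) and 542 (512 to 574) CPM, whereas endothelial-marker nuclei had 13.4 and 4.46 CPM and mural-marker nuclei 109 and 74.7. The canonical transcripts of *Col4a1* and *Col4a2* overlap by 317 bases at their starts, and how reads were assigned by strand was not given in the sources used here, so they may share reads.

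Of the proteoglycans, most of them small leucine-rich proteins that bind collagen fibrils, 5 of 7 with enough transcripts were higher once *Dcn* and *Lum* of the rule were left out. *Ogn* was at 78.3 CPM (67.2 to 90.8) against 2.22, *Bgn* at 60.5 (50.8 to 71.6) against 1.95 and *Fmod* at 25.4 (19.2 to 32.9) against 0.446. *Vcan*, the large proteoglycan of loose embryonic matrix, was not higher, at 476 CPM (448 to 505) against 497.

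**Figure D2:**
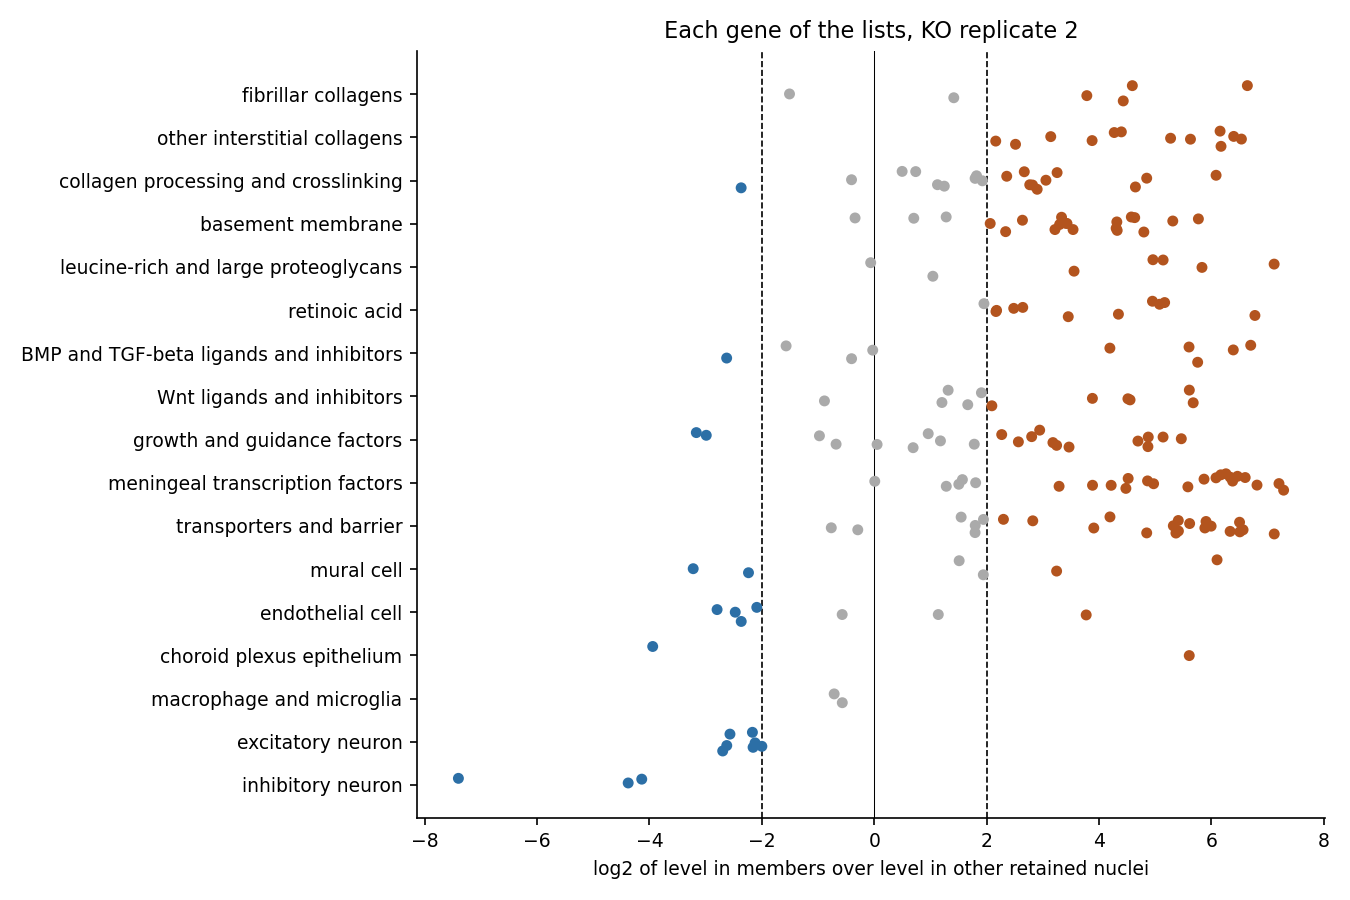
Each point is a gene with enough transcripts, placed by the log2 ratio of its level in fibroblast nuclei to that in other retained nuclei of *Dnmt1* KO replicate 2, by gene list. The meningeal fibroblast, pial, arachnoid, dural, cartilage and bone, radial glia, neural crest and cell-cycle lists are not drawn. Dashed lines mark 4-fold, colours mark higher (brown), lower (blue) and neither (grey), and genes of the rule and genes with 0 transcripts in fibroblast nuclei are not drawn.

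Retinoic acid genes were higher in 10 of 11 cases. *Aldh1a2*, the main retinoic acid synthesising enzyme of the embryo, was at 336 CPM (312 to 361) against 3.07, with 0, 2 and 40 transcripts in the lowest, median and highest nucleus. It was detected in 64.5% of fibroblast nuclei and 0.416% of excitatory-marker nuclei. The retinol uptake receptor *Stra6* (33.8 against 1.00 CPM) and the retinoic acid receptor *Rarb* (663 against 18.5) were higher as well. Of the degrading enzymes *Cyp26b1* was at 21.4 CPM (15.7 to 28.3) against 1.95.

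Of the BMP and TGF-beta list 5 of 9 genes were higher and 1 was lower. *Bmp6* was at 1311 CPM (1264 to 1360) against 12.6, with 0, 12 and 105 transcripts in the lowest, median and highest nucleus, and was detected in 88.2% of fibroblast nuclei and 1.30% of excitatory-marker nuclei. *Bmp5* was at 432 (405 to 460) against 5.16, *Bmp7* at 339 (315 to 364) against 6.99 and *Bmp4* at 28.5 (21.9 to 36.4) against 0.528. *Ltbp1*, which holds latent TGF-beta in the matrix, was lower, at 35.2 CPM (27.8 to 43.8) against 217.

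Wnt pathway genes were higher in 6 of 11 cases, with a median ratio of 4.26. The ligands *Wnt4*, *Wnt6* and *Wnt9a* were at 34.3, 15.6 and 30.3 CPM against 0.704, 0.305 and 1.33. *Dkk2*, a secreted Wnt modulator, was at 210 CPM (191 to 229) against 8.94, with a median of 0 and a highest value of 78 transcripts per nucleus. *Rspo2*, which amplifies Wnt signals, was at 268 (247 to 290) against 62.8 CPM, while choroid plexus-marker nuclei had 867 CPM. *Rspo3* was neither, at 58.3 against 108 CPM.

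Growth and guidance factors were higher in 12 of 21 cases and lower in 2. The heparin-binding growth factor *Ptn* was at 2001 CPM (1943 to 2060) against 260, and *Igf2*, an embryonic growth factor, at 251 (230 to 272) against 7.11. The chemokine *Cxcl12*, which guides migrating Cajal-Retzius cells and interneurons under the meninges, was at 198 (180 to 217) against 7.65. *Sema3a* and *Sema3d*, secreted guidance cues, were at 810 and 216 CPM against 168 and 7.40, and the receptor *Pdgfra* was at 320 against 7.25. *Igfbp7* and *Igfbp3* were lower, at 2.67 and 1.33 CPM, and had 907 and 52.6 CPM in endothelial-marker nuclei. *Slit2* and *Slit3* stayed within 4-fold of the other nuclei.

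Transcription factors of the cranial mesenchyme, with *Foxc1* of the rule left out, were higher in 19 of 24 cases and lower in 0, with a median ratio of 38.7. The T-box factors *Tbx15* and *Tbx18* were at 693 (659 to 728) and 441 (414 to 469) CPM against 8.34 and 5.00. The zinc-finger genes *Zic1*, *Zic2*, *Zic4* and *Zic5* were at 196, 103, 329 and 46.7 CPM against 8.55, 5.56, 10.5 and 3.17. The homeobox genes *Prrx1* (322 against 14.4 CPM) and *Alx4* (95.2 against 1.41), and *Osr1* (69.9 against 0.973), were also higher. *Foxp1* and *Foxp2* were within 4-fold, at 2280 against 804 and 1484 against 500 CPM.

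Transport and junction genes, with *Slc6a13* of the rule left out, were higher in 18 of 24 cases and lower in 0, with a median ratio of 40.6. *Slc7a11*, the cystine-glutamate exchanger, was at 562 CPM (532 to 594) against 6.98. The amino acid and organic anion carriers *Slc6a20a* and *Slc22a6* were at 277 (255 to 299) and 133 (119 to 149) CPM against 4.35 and 1.41. The gap junction gene *Gja1* was at 416 (390 to 444) against 10.1, and the tight junction gene *Cldn11* at 143 (128 to 159) against 2.42. *Slc2a1* and *Abcb1a*, carriers of the blood-brain barrier, were not higher, at 13.3 against 22.7 and 8.45 against 10.4 CPM, and had 716 and 456 CPM in endothelial-marker nuclei.

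**Figure D3:**
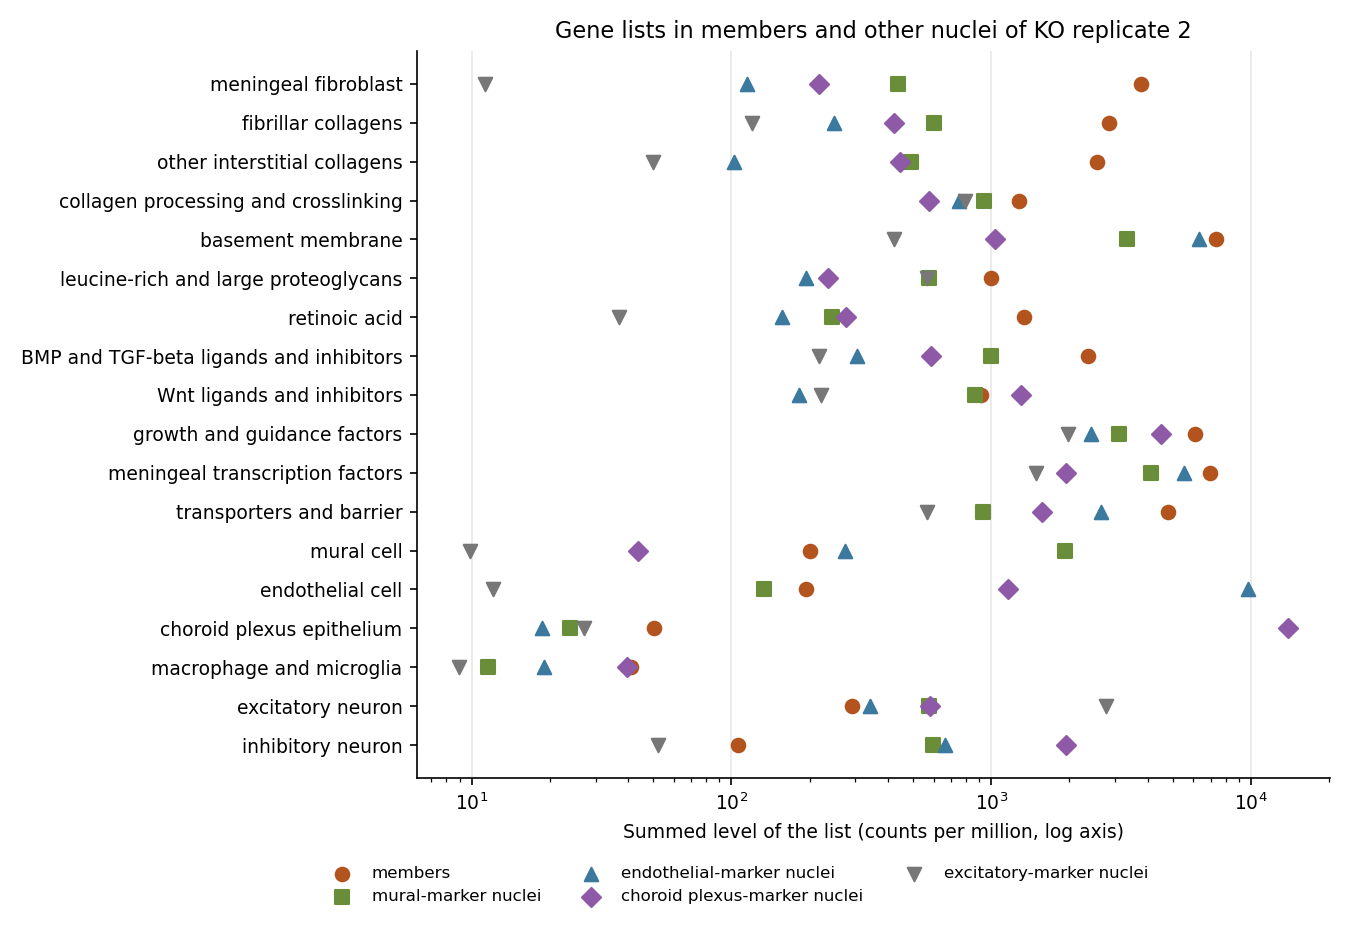
Summed levels of gene lists in CPM (log axis) in fibroblast nuclei and in nuclei of *Dnmt1* KO replicate 2 gated on mural, endothelial, choroid plexus or excitatory neuron markers. The pial, arachnoid, dural, cartilage and bone, radial glia, neural crest and cell-cycle lists are not drawn. Fibroblast nuclei summed to 2832 CPM for fibrillar collagens against 604 in mural-marker nuclei (1821 against 533 without *Col1a1* and *Col1a2*, which the rule required together), and to 7360 CPM for the basement membrane against 6291 in endothelial-marker nuclei.

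Some genes of the radial glia, endothelial, choroid plexus and mural lists were higher too. *Slc1a3*, a glutamate transporter of the radial glia list, was at 1416 CPM (1368 to 1466) against 206. *Cdh5*, an endothelial cadherin, was at 99.2 (86.6 to 113) against 7.27, and *Kl*, an epithelial gene of the choroid plexus list, at 22.2 against 0.457. *Pdgfrb* of the mural list was at 113 against 11.9 CPM and was found in 64.5% of the nuclei. *Acta2* of the same list was at 12.5 against 0.182 CPM, from 4 of the 152 nuclei with at most 10 transcripts each. Of the other genes of these lists with enough transcripts 0 were higher. Outside the rule, which capped *Flt1* and *Ttr*, 4 endothelial genes, 2 mural genes (*Rgs5* and *Abcc9*), 1 choroid plexus gene and 1 radial glia gene (*Pax6*) were lower, among them *Kdr* and *Erg* of the endothelial list. All 7 excitatory and all 5 inhibitory neuron genes with enough transcripts were lower, including *Gad1* and *Gad2* of the rule. Of the cartilage and bone list 2 of 3 genes with enough transcripts were higher, namely the osteogenic factor *Runx2* (75.2 against 9.27 CPM) and the phosphatase *Alpl* (25.8 against 1.64). Of 11 cell-cycle genes with enough transcripts 0 were higher or lower, and the list summed to 738 CPM against 476 in other nuclei, 1597 in mural-marker and 150 in excitatory-marker nuclei.

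Ranking all genes by ratio, without the rule genes, brought further names to the front. The 25 leading genes included the lists' *Aldh1a2*, *Bmp6*, *Col3a1*, *Tbx18* and *Itih5*. Those outside the lists included *Ranbp3l* at 1803 CPM (1748 to 1860), *Bnc2*, a zinc-finger gene, at 3034 (2962 to 3107), *Prdm6*, a transcriptional regulator, at 856 (818 to 895), *Cped1* at 1905 (1849 to 1963), the transmembrane collagen *Col13a1* at 196 (178 to 215), *Tfap2b*, a neural crest transcription factor, at 68.5 (58.1 to 80.2), and *Edn3*, an endothelin ligand, at 47.6 (39.0 to 57.5). *Bnc2* was uneven, with 0, 14.5 and 277 transcripts in the lowest, median and highest nucleus, whereas *Cped1* was found in 151 of 152 nuclei. The 10 genes with the lowest ratio included *Nxph1* (8.90 against 689 CPM), *Nrxn3* (93.0 against 3570) and *Gria1* (38.7 against 924). *Reln* (12.5 against 604) and *Grik1* (8.45 against 202) were also among them and stood at 1692 and 470 CPM in mural-marker nuclei, as was *Erbb4* (101 against 2101), at 1848 CPM in choroid plexus-marker nuclei. *Reln* was found in only 21.7% of mural-marker nuclei, against 23.5% of all retained nuclei other than fibroblasts, and *Grik1* in 56.6% against 21.3%. *Dnmt1* itself was at 59.6 CPM (50.0 to 70.6) in the fibroblast nuclei of *Dnmt1* KO replicate 2, against 47.3 in its other nuclei. The interval covers counting error only. *Dnmt1* was uneven, found in 53 of the 152 nuclei, with 0, 0 and 13 transcripts in the lowest, median and highest nucleus. *Sst* had 2 transcripts in all 152 nuclei.

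The 152 nuclei fell into 6 groups, which are described by their genes and were given no cell-type names. The groups were formed on the counts of these same nuclei, so levels that differ between groups describe the grouping and are no test. Intervals of group levels cover counting error only. Counts of list genes by group used only genes above a further minimum of transcripts, and the share over all genes is not given. Groups 1, 2 and 3 held 38, 36 and 34 nuclei and no doublet call, and carried the main contrast. Group 1 was led by *Col15a1*, *Vwa5b1* and *Runx1*. It had the highest level for 12 of the 17 basement membrane genes and 4 of the 5 BMP list genes that were compared between groups. *Lama1* was at 2197 CPM (2056 to 2345) in group 1, 202 (162 to 248) in group 2 and 6.37 (1.31 to 18.6) in group 3. *Col4a5* and *Col4a6* followed the same order, with 2129, 265 and 40.4 CPM and 1674, 227 and 25.5 CPM. *Cxcl12* was at 533, 110 and 23.4 CPM, *Bmp5* at 1153, 305 and 259, and the 3 genes *Lama1*, *Cxcl12* and *Postn* of the pial list were all highest in group 1. The other genes of that list, *S100a6* and *Ngfr*, had too few transcripts to be compared. The macrophage list summed to 202 CPM in this group against at most 7.72 in the others, with single nuclei behind it, since all 9 *Csf1r* and all 12 *Ptprc* transcripts of the 152 nuclei lay in 1 nucleus each and 26 of 30 *F13a1* transcripts in 1 nucleus. With at least 10 *Col1a1* and *Col1a2* transcripts required, the list fell from 40.9 to 5.83 CPM over all fibroblast nuclei.

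Group 2 was led by *Mro*, *Ptgds*, *Cemip* and the carriers *Slc22a2* and *Slc13a3*. *Aldh1a2* reached 747 CPM (669 to 831) in group 2, against 504 (437 to 577) in group 1 and 21.2 (10.2 to 39.1) in group 3. *Ranbp3l* was at 4137 CPM (3951 to 4331) there and *Enpp2*, which makes lysophosphatidic acid, at 863 (779 to 954). Of the 17 transport and barrier genes compared, 7 were highest in group 2, 6 in group 3 and 3 in group 1. *Slc6a13* was at 666 CPM in group 2 and 611 in group 1.

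Group 3 stood apart from both. It was led by *Slc16a9*, *Tsc22d3*, *Rtl4*, *Dkk2* and the bone and mesenchyme phosphatase *Alpl*. *Bnc2* reached 9314 CPM (9040 to 9593), *Foxp1* 5708 (5495 to 5928), *Foxp2* 3567 (3398 to 3742), *Tbx15* 1753 (1635 to 1876) and *Col12a1* 1283 (1183 to 1390). The dural list summed to 7104 CPM, most of it *Foxp1*, against 897 to 1903 CPM in the other groups. *Dkk2* was at 897 CPM (813 to 986) in group 3 and at 14.6 and 2.24 in groups 1 and 2, and *Rspo2* at 835 against 0 and 89.7. The carriers *Slc6a13*, *Slc6a12*, *Slc6a20a*, *Slc22a6* and *Slc13a3* were at 0 in its 34 nuclei, where the upper 95% limit of a 0 count is 7.84 CPM. *Slc6a13* is a gene of the rule, and nuclei of this group passed through *Dcn*, *Lum* or *Foxc1*. *Col1a2*, a gene of the rule, was at 910, 841 and 1287 CPM in groups 1, 2 and 3.

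The smaller groups carried genes of other programmes. Group 5 (15 nuclei) was led by *E2f8*, *Esco2* and *Ska1*, and its cell-cycle list summed to 3725 CPM against 62.8 to 1014 in the other groups. Group 4 (16 nuclei, 2 doublet calls) was led by *Gm29260*, *Sox6* and *Erbb4*, and its inhibitory neuron list summed to 741 CPM, all of it *Erbb4*. Of the 227 *Erbb4* transcripts in all 152 nuclei, 168 lay in 1 nucleus. Group 6 (13 nuclei) had a median of 34271 transcripts, its excitatory neuron list summed to 1286 CPM against 49.3 to 69.5 in the others, and 11 of its 13 nuclei were called as doublets. At resolution 1 the 152 nuclei formed 9 groups. Without doublet calls 139 nuclei formed 5 groups, and the excitatory list fell from 291 to 65.3 CPM over all fibroblast nuclei.

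**Figure D4:**
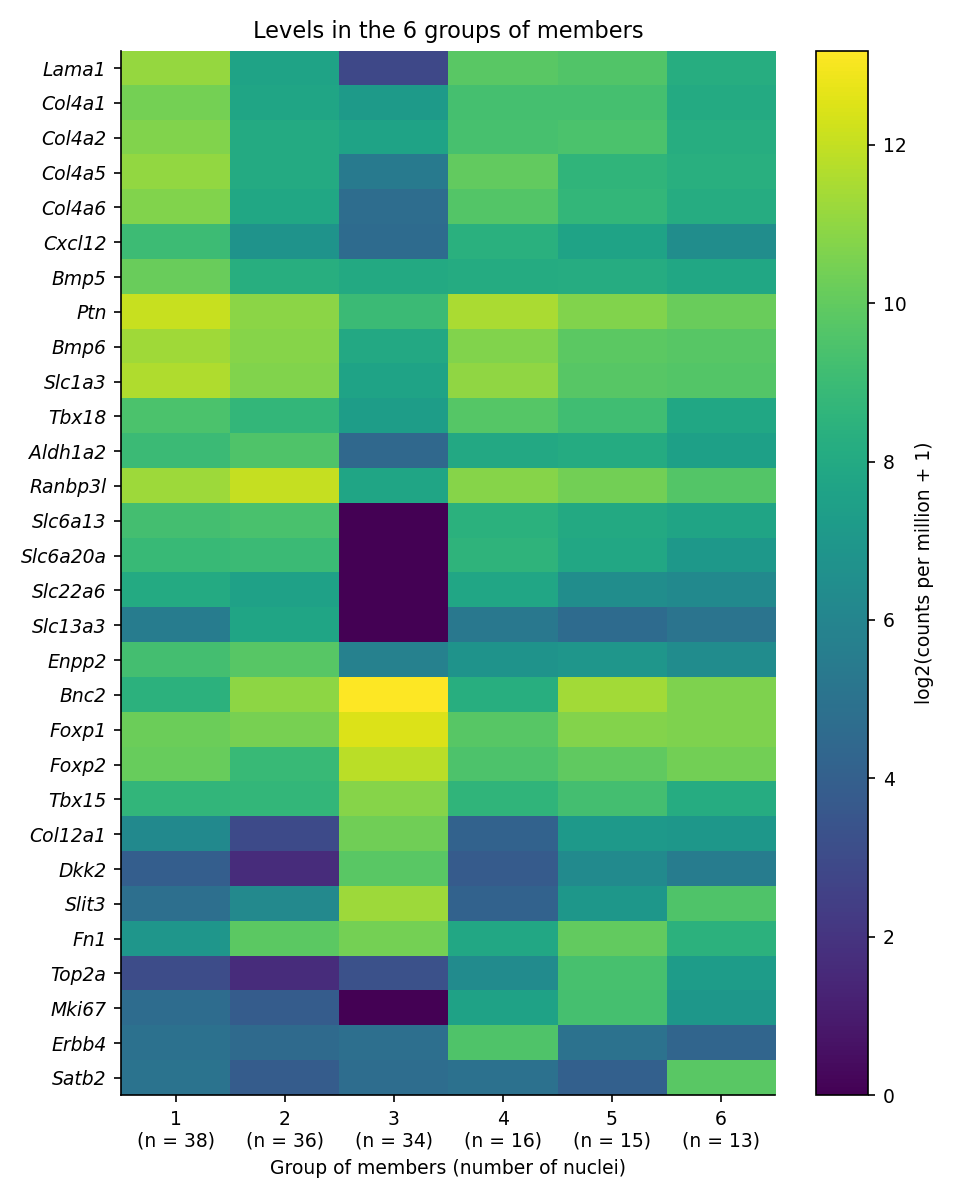
Level of chosen genes in the 6 groups of fibroblast nuclei of *Dnmt1* KO replicate 2, as log2(CPM + 1) on the colour scale. *Lama1*, *Col4a5*, *Col4a6* and *Cxcl12* were highest in group 1, *Aldh1a2*, *Ranbp3l* and *Enpp2* in group 2, and *Bnc2*, *Foxp1*, *Tbx15* and *Dkk2* in group 3.

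The 3 fibroblast nuclei of control replicate 2 provided the second library. They held 17510, 22457 and 11674 transcripts, 51641 in all. Of the 129 list genes that were higher in *Dnmt1* KO replicate 2, 85 were detected in them. Of all genes outside the rule, 729 of 1107 higher in *Dnmt1* KO replicate 2 and 6611 of 10005 tested there were detected. With at least 3 transcripts required in the 3 nuclei, 67 of the 129 were at least 4-fold above the other nuclei of control replicate 2. Over all genes outside the rule the share was 9.15% of 10005 tested in *Dnmt1* KO replicate 2, and 41.6% of the 1107 that were higher there. Of 22 list genes that were lower, 0 were 4-fold above, against 0.246% of all 814 lower genes. For 64 of the higher genes at least 5 transcripts were expected at the level of the *Dnmt1* KO nuclei. Of these 59 were detected, where all genes with as many expected gave 2089 of 2241 tested and 337 of 370 higher. At least 4-fold above were 52 of the 64, against 17.1% of the 2241 and 77.8% of the 370. The Poisson interval of 32 of the 64 genes held the *Dnmt1* KO level.

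*Col3a1* had 18, 8 and 10 transcripts in the 3 nuclei, or 697 CPM (488 to 965) against 0.621 in the other nuclei. *Bmp5* had 14, 30 and 24 transcripts (1317 CPM, 1023 to 1669, against 1.46), and *Tbx18* had 13, 4 and 6 (445 CPM, 282 to 668, against 0.435). These genes were present in each nucleus. *Lama1* had 0, 156 and 27 transcripts, *Aldh1a2* 21, 0 and 3, and *Bmp6* 28, 14 and 0, so that the nuclei differed from each other. *Edn3* had 3, 7 and 3 transcripts, and was listed at 0 in the other nuclei of that library. The level in *Dnmt1* KO nuclei lay below the interval for 20 of the 64 genes, such as *Lama1* (3544 CPM in the control nuclei against 685) and *Col4a5* (2440 against 663). It lay above the interval for 12. Among these *Dkk2*, *Rspo2* and *Adamts2* were at 0 in the control nuclei, where 10.8, 13.8 and 15.3 transcripts were expected. *Bnc2*, outside the lists, was at 58.1 CPM (11.98 to 169.8) from 3 transcripts, against 3034 in *Dnmt1* KO nuclei. With 3 nuclei of 1 control library, differences between nuclei, libraries, batches and genotypes cannot be told apart here.

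**Figure D5:**
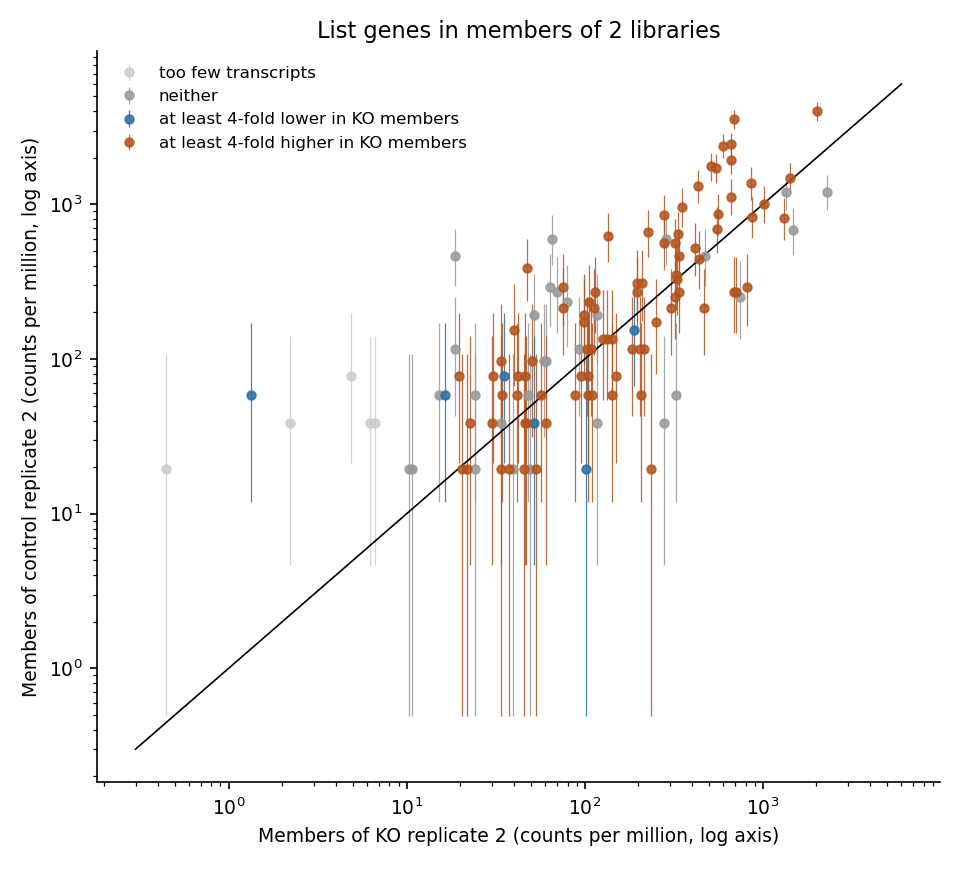
Level of each list gene outside the rule in the 3 fibroblast nuclei of control replicate 2 (exact Poisson 95% intervals) against the 152 of *Dnmt1* KO replicate 2, both in CPM on log axes, with the line of equality. Genes with 0 transcripts in either are not drawn, and *Col3a1* lies at 553 and 697 CPM.

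Whether fibroblast genes differed between genotypes could be tested only in the sum of all retained nuclei per library, where fewer cells of a type and less RNA per cell cannot be told apart. edgeR's quasi-likelihood test with Benjamini-Hochberg adjustment called 0 of 21516 genes (0.0%), with 1612 at an unadjusted p under 0.05, whereas DESeq2 called 199 of 18178 (1.09%), of which 19 were list genes higher in fibroblast nuclei. *Col3a1* was at 0.783 CPM in the first and 12.7 in the second *Dnmt1* KO library and at 0.618 and 0.940 in the controls (log2 fold change 3.11, SE 1.27, edgeR adjusted p = 0.649). *Tbx18* was at 0.637 and 10.7 CPM against 0.758 and 0.639 (log2 fold change 3.02, SE 1.27, edgeR adjusted p = 0.649), and *Aldh1a2* at 0.0929 and 7.40 against 0.110 and 0.568 (3.45, SE 1.83, edgeR adjusted p = 0.661). For these genes *Dnmt1* KO replicate 2 was high and *Dnmt1* KO replicate 1 was at or near the control libraries. The SE values are approximate, since the edgeR test reports none. They were back-calculated as the absolute log2 fold change over the square root of the test statistic F.

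The list genes that were higher in fibroblast nuclei had been chosen on the counts of *Dnmt1* KO replicate 2, so their values over the libraries describe that choice and are no evidence on genotype. Over 121 of them the median log2 fold change was 0.97, against -0.01 over all genes tested, and 87 were highest in *Dnmt1* KO replicate 2 (against 25.4% of all genes). Both *Dnmt1* KO libraries lay above both control libraries for 61 (against 19.3% of all genes tested). *Bmp6* was among the 61, at 6.24 and 29.5 CPM against 3.11 and 1.92, as was *Lama1*, at 32.6 and 37.3 against 20.3 and 23.6. When the fibroblast nuclei were left out of every library, 118 of these genes were tested, with a median of 0.76 and 61 above both controls (against 18.9% of all genes). edgeR then called 0 of 21483 genes (0.0%, 1592 at an unadjusted p under 0.05) and DESeq2 184. *Col3a1* in *Dnmt1* KO replicate 2 fell from 12.7 to 5.55 CPM and *Aldh1a2* from 7.40 to 3.07 CPM when the fibroblast nuclei were removed. Without *Dnmt1* KO replicate 1 edgeR called 188 of 22784 genes (0.825%), 33 of them list genes higher in fibroblast nuclei. Once the fibroblast nuclei were left out it called 42 of 22714, of which 4 were such list genes. In these fits the lone *Dnmt1* KO library is the one the list genes were chosen on, the spread comes from the control pair, and the lone library is assumed to vary like the controls, so the calls are no evidence on genotype. Without *Dnmt1* KO replicate 2 it called 1 in either case.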

How the data were processed

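Nuclei of E16.5 medial cortex were barcoded by split-pool indexing (Parse Evercode) in 2 *Dnmt1* KO and 2 control libraries, grouped by the sample titles. The authors processed reads with Trailmaker against GRCm39 and deposited raw counts of transcripts per barcode and gene, without normalization. The software version, the annotation, and the handling of introns and strand were not given in the sources used here. The submitters' processing notes further name R 4.4.1 and Seurat 5.0.1.9001.

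Retained barcodes had 1500 to 60000 transcripts and a mitochondrial share of 10% or less, after the study's methods, where the range is given for reads. The mitochondrial limit removed 0 barcodes. Doublets were called with scrublet at an expected rate of 5% and kept. Members and gene lists were chosen with earlier results of these data known. Genes named are those of the 25 lists (322 genes), the 25 with the highest and the 10 with the lowest ratio, the leading genes of each group, *Dnmt1* and *Sst*. Some list genes are not reported here, and others are given only in counts. A ratio needed at least 20 transcripts in members, or that many expected from the level in the other nuclei. Ranked genes needed at least 50 transcripts in and detection in 25% of members (highest), or at least 200 CPM in other nuclei (lowest). Comparison nuclei were gated on raw marker counts after removing members.

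Groups came from Leiden clustering (scanpy 1.11.5, leidenalg 0.10.2, Python 3.11.15, resolution 0.5, 1000 variable genes, 10 components, 10 neighbours). Counts summed per library were tested with edgeR 4.0.16 (R 4.3.3, TMM, filterByExpr, quasi-likelihood, Benjamini-Hochberg, threshold 0.05), with DESeq2 1.42.0 as an alternative, and the test was checked on simulated data. Further alternatives were other limits of the rule, the range on mapped reads, counts scaled to 10000 per nucleus, doublets removed, other filters, a batch term, a replicate block and leaving out each library.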

Additional observations from a re-analysis of the deposited data

Results flagged for a closer look

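In *Dnmt1* KO replicate 2, 3 barcodes above 60000 transcripts, which were outside the retained range, met all limits on marker transcripts, and 0 did so in the other libraries. They were noted because they lie outside the data used for the comparisons while the control libraries held none.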

How the results depend on the processing

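The share difference kept its direction under every changed limit of the rule, the range or the doublets (0.334 to 0.725 percentage points), and its exact permutation p was 1, or 0.667 without upper limits on *Flt1*, *Ttr* and *Gad1* and *Gad2*. It ran from -0.0306 to 1.23 when 1 library was left out, reversing without *Dnmt1* KO replicate 2. Genes called over all retained nuclei (edgeR, 0) numbered 199 with DESeq2 and 70 without a filter on low counts, and 0 to 188 when 1 library was left out. Without the fibroblast nuclei (0) they numbered 184, 55 and 0 to 42. The highest counts among the fits that left out a library came without *Dnmt1* KO replicate 1. DESeq2 size factors, mapped reads and removed doublets gave 0. A batch term takes up control replicate 2, the only library of batch 2. That fit leaves control replicate 1 as the only control library and cannot adjust for batch. Leaving out 1 library, log2 fold changes ranged from -0.55 to 4.16 for *Col1a2*, -0.0167 to 4.01 for *Col3a1*, -1.89 to 5.11 for *Aldh1a2* and -0.15 to 3.93 for *Tbx18*, all lowest without *Dnmt1* KO replicate 2. The replicate block also called 0 genes in either sum, and same-numbered libraries did not deviate together (r = -0.058 over 21516 genes), so the numbers give no pairing. Of 335 levels, 91 moved beyond their intervals at 10 *Col1a1* and *Col1a2* transcripts, 8 at 4 transcripts of the second gene set, 103 with scaled counts, 82 without doublets and 62 on mapped reads. The causes were not tested. Levels rest on 1 library, and depth limits the 3 control nuclei to genes of several transcripts.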

Other observations

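Several list genes that are neighbours in the genome were higher together in the fibroblast nuclei of *Dnmt1* KO replicate 2. Pairs were sought among genes of the lists other than the mural, endothelial, choroid plexus, macrophage, excitatory, inhibitory, radial glia and cell-cycle lists. Among these genes 35 pairs had start sites within 200 kb of each other, and in 21 of them both genes had enough transcripts. Both were at least 4-fold higher in 16 of these pairs, 1 was in 4 pairs, and neither was in 1 pair. Of all list genes outside the rule with enough transcripts, 60% were higher. *Zic1* and *Zic4*, on chromosome 9 with 2236 bases between their start sites, were at 196 and 329 CPM. *Zic5* and *Zic2*, on chromosome 14 with 8738 bases between them, were at 46.7 and 103 CPM. The pairs among *Dcn*, *Lum* and *Epyc* and the pair of *Slc6a13* and *Slc6a12*, which are within the 16, hold genes of the rule. The lists group related genes by design, and related genes are often neighbours, so the count has no expectation here.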
